A study of Mus musculus with 24 samples.

Results

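The genes described here are 10 that encode the contractile and actin-anchoring proteins best known from smooth muscle: the actins Acta2 and Actg2, the myosin regulatory light chain Myl9, the calponin family members Tagln, Cnn1 and Cnn2, the tropomyosins Tpm1 and Tpm2, the caldesmon gene Cald1 and the vinculin gene Vcl. They were taken by symbol from the platform annotation of the array and make up 10 of the 19938 genes that could be tested. Each of the 10 was read by 1 probe set, so splice forms of a gene were not told apart. Their levels were followed in NIH3T3 cells, an immortalised line of mouse embryonic fibroblasts, on 24 Affymetrix MoGene 1.0 ST arrays, which measure RNA by hybridisation to probes along the whole transcript.

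All groups had been exposed to 1 mM difluoromethylornithine (DFMO) for 96 h. DFMO inactivates ornithine decarboxylase, the enzyme that makes putrescine, the precursor of spermidine and spermine, so the cells enter the experiment short of polyamines and, by the study's description, growth arrested. The groups taken early (30, 60, 120 and 240 min) and late (360, 480 and 600 min) were collected after 10 µM spermidine had been given together with 1 mM aminoguanidine, which keeps serum oxidases from degrading it. The group at 0 min had DFMO and no spermidine, and the labels leave unsaid if it was given aminoguanidine. Each of the 8 times had 3 biological replicates, and no group kept in DFMO alone to the later times was analysed here, so the effects of spermidine, of aminoguanidine and of time in culture cannot be told apart. The question is how these genes behaved over the 600 min after spermidine was given.

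In smooth muscle and in the stress fibres of fibroblasts, myosin II pulls on actin filaments once its regulatory light chain is phosphorylated. Tropomyosin lies along the filament, calponin, transgelin and caldesmon bind it and modulate its contact with myosin, and vinculin links filaments to the membrane at focal adhesions. Many of these genes are classical targets of serum response factor (SRF), which binds a DNA element called the CArG box and works with the MRTF cofactors, whose entry to the nucleus is set by the pool of unpolymerised actin. Acta2 in fibroblasts is best known as a mark of the myofibroblast state.

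Because SRF acts through the CArG box, the promoter windows of the 10 genes were searched for it. RefSeq windows on mouse build GRCm38.p6, 300 bases each with 250 before and 50 after the annotated start, were at hand for 8 of the genes, not including Actg2 and Tagln. The box is 10 letters long, with 6 letters in the middle that are each A or T. Its pattern is the same on both strands, though the letters of a single box need not be. An exact box was found in 3 of the 8 (Myl9, Cnn2 and Vcl), against 1.81% of all 27025 genes in the table. A box with 1 of the middle 6 letters replaced by G or C was found in 2 (Acta2 and Myl9), against 9.69% of all genes. Neither form was found in the windows of Cnn1, Tpm1, Tpm2 and Cald1. Stretches that hold the boxes are shown for the 4 genes, 5′ to 3′ on the strand of the gene, with the boxes in capitals; a match is a run of letters and not evidence of binding.

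The Acta2 stretch is chr19:34255378-34255477 on the minus strand, and its 2 boxes, each 1 letter off, begin 84 and 34 bases before the start.
Acta2: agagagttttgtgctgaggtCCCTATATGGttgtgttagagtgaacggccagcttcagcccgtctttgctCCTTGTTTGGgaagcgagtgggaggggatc
The Myl9 stretch is chr2:156775283-156775394 on the plus strand, with an exact box that begins 161 bases before the start and a box 1 letter off that begins 99 bases before it.
Myl9: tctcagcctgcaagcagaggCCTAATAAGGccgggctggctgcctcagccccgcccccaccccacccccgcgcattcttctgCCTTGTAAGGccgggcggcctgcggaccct
The Cnn2 stretch is chr10:79988499-79988598 on the plus strand, with an exact box that begins 56 bases before the start.
Cnn2: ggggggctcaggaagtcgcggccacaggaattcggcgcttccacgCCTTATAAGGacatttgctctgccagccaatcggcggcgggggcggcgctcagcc
The Vcl stretch is chr14:20929148-20929225 on the plus strand, with an exact box that begins 227 bases before the start.
Vcl: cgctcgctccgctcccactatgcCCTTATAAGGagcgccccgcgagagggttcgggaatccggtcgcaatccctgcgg

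The values are log2 signals as deposited, and array medians lay between 4.40 and 4.45. A level is given on this scale unless a linear signal is named, and levels of different genes were not set against each other, since probe sets differ in brightness. Signals were added up over genes only where the marker lists are described. Replicate 3 of 120 min and replicate 3 of 240 min stood apart from their labelled time on the first principal component of all genes: its value was 2.61 for that 120 min array against -12.2 for both other 120 min arrays, and -13.2 for that 240 min array against 2.07 and 1.49 for the other 240 min arrays. Each thus lay near the other arrays of the other's time, and whether the 2 had been exchanged was not tested. The 120 and 240 min values hold only as far as these labels do. Both arrays were kept, and where leaving them out changes a call, a count of calls or the range of the differences of the 10 genes, that value is given too. As they were picked for lying away from their groups, p-values without them may be too small. The deposited values also hold no difference between the means of the 3 replicate numbers over the 8 times (at most 8.75e-05 for any gene), so a replicate effect had been taken out and p-values are somewhat too small. The model was therefore also fitted with the replicate number as a blocking term, which changed no call of the 10 genes against 0 min or between neighbouring times.

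The labelled cell type was set against marker lists. All 9 fibroblast markers averaged at least 6 over the 24 arrays, whereas 0 of 7 defining smooth muscle markers did (3.66 to 5.98, with the smooth muscle myosin Myh11 at 3.98 and the SRF partner Myocd at 4.03), nor did any of 17 skeletal and cardiac markers. Since probe sets differ in brightness, a low reading does not show that a transcript was absent. In bulk RNA, fewer cells with a transcript and less of it per cell cannot be told apart.

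After spermidine, no change of the contractile genes passed the test through 240 min, and from 360 min on the number that passed it as lower rose at each time. By limma with Benjamini-Hochberg adjustment over all genes at an adjusted p under 0.05, 0 of 10 were called at 30, 60, 120 or 240 min, 2 were lower at 360 min, 6 at 480 min and 7 at 600 min, and none was called higher at any time. With both outlying arrays left out, 3 were lower at 360 min, with Myl9 added, and the counts at 480 and 600 min were again 6 and 7. At 600 min Myl9, Tpm1, Cnn2, Tagln, Tpm2, Actg2 and Acta2 had fallen, with differences from -1.17 (Myl9) to -0.25 (Acta2 and Actg2) on the log2 scale, while Cnn1, Cald1 and Vcl did not pass the test.

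Among all genes the share called was 0.015% at 30 min, 0.0251% at 60 min, 0.471% at 120 min and 3.06% at 240 min in either direction. Lower calls made up 10.5% of all genes at 360 min, 14.5% at 480 min and 15.7% at 600 min, and higher calls made up 8.47%, 9.73% and 11.2% at these times. The 7 of 10 at 600 min stand beside that 15.7%. Without adjustment, 1, 0, 0 and 1 of the 10 had p under 0.05 (limma) at 30, 60, 120 and 240 min. Of all 19938 genes, 1104, 1024, 2437 and 3070 did at these times. The differences of the 10 genes lay between -0.01 and 0.20 at 30 min and between -0.17 and 0.13 at 240 min. With both outlying arrays left out, the 240 min range was -0.10 to 0.10. Their median was 0.07, 0.04, 0.08 and -0.01 at the 4 early times and -0.09, -0.23 and -0.29 at the 3 late ones (0.05 at 120 min and -0.02 at 240 min without the pair), and that of all genes stayed within 0.01 of 0. At 600 min 8 of the 10, the 7 called and Vcl, had all 3 arrays below all 3 of 0 min, against 19.9% of all genes. Every comparison with 0 min shares its 3 arrays, so the later times do not repeat each other independently.

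**Figure D1:**
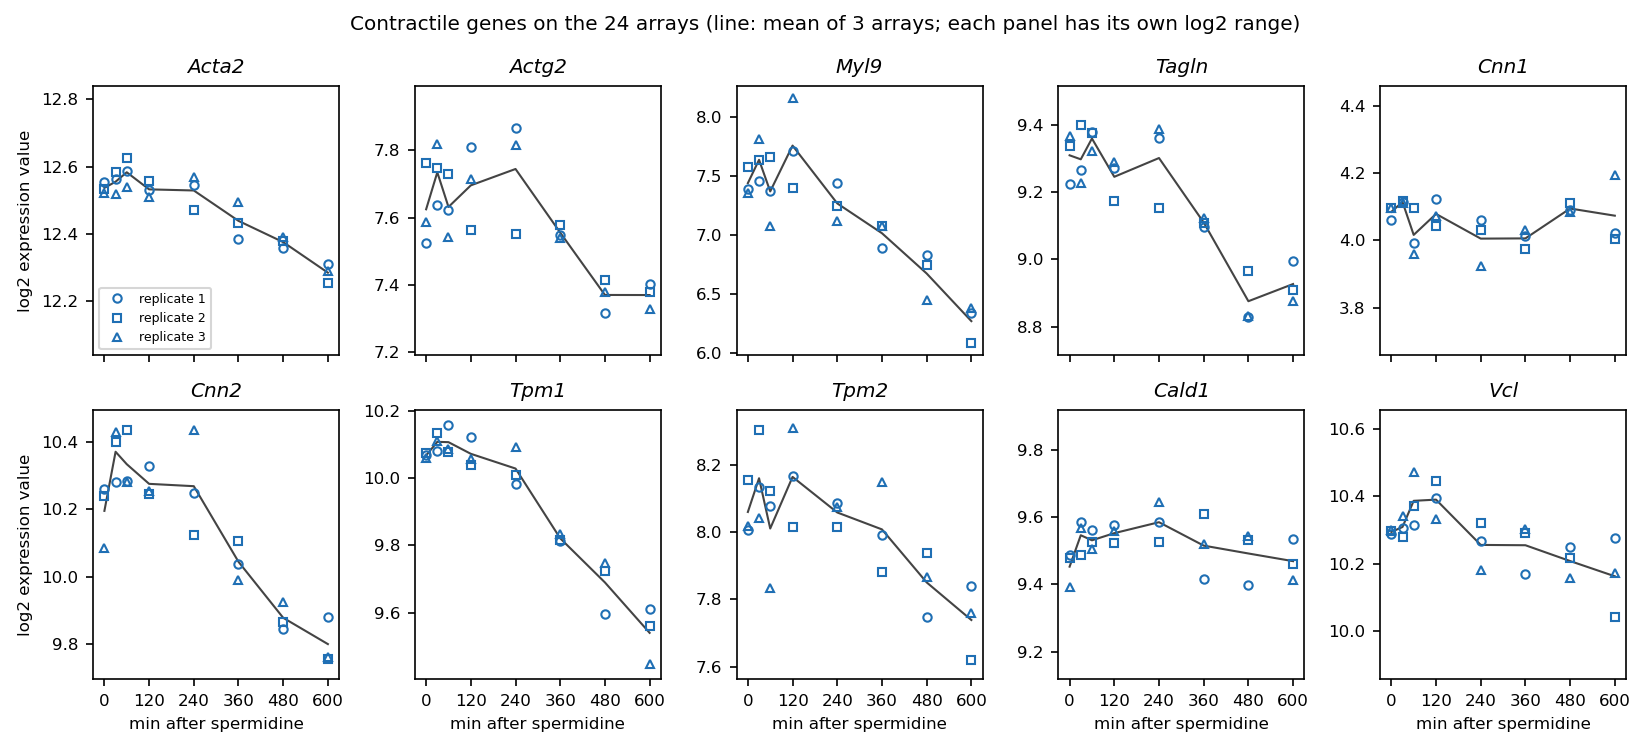
Log2 signal (vertical axis, own range for each gene) of the 10 genes against time in min, with 1 point per array, 3 per time, and a line through the means. Myl9, Tpm1, Tagln, Cnn2 and Acta2 are lower from 480 min on than at 0 min, while no difference of Cnn1 or Cald1 was called.

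Acta2, the smooth muscle alpha actin, read 12.31, 12.25 and 12.29 at 600 min, against 12.56, 12.53 and 12.52 at 0 min. The groups did not overlap, and the spread within each was small beside the gap. Its mean was 12.56, 12.58, 12.53 and 12.53 at 30, 60, 120 and 240 min, then 12.44, 12.38 and 12.29 at 360, 480 and 600 min. The difference from 0 min was -0.16 ± 0.03 (SE) at 480 min and -0.25 ± 0.03 at 600 min (limma, adjusted p 0.00152 and 1.33e-05), or 0.840-fold at 600 min. At 360 min the difference of -0.10 missed the threshold (adjusted p 0.0564), and without replicate 3 of 360 min it passed it (adjusted p 0.0239), as it did under quantile normalisation (0.0129). Without replicate 1 of 360 min the adjusted p was 0.249.

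Actg2, the gamma actin of enteric smooth muscle, read 7.40, 7.38 and 7.33 at 600 min, against 7.53, 7.76 and 7.59 at 0 min. At 480 min it read 7.32, 7.42 and 7.38, and at both times every array lay below those of 0 min. Replicate 2 of 0 min was the highest of its group and bears on the call. The differences were -0.25 ± 0.08 at 480 min and again -0.25 ± 0.08 at 600 min (limma, adjusted p 0.0200 and 0.0181). Without that array the adjusted p was 0.133 and 0.123, without replicate 1 of 480 min it was 0.0775 at 480 min, and without replicate 3 of 600 min it was 0.0650 at 600 min. Quantile normalisation gave 0.0621 at 600 min.

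Myl9, the regulatory light chain whose phosphorylation switches on smooth muscle and non-muscle myosin II, moved the furthest of the 10. Its arrays read 6.34, 6.08 and 6.38 at 600 min, against 7.39, 7.58 and 7.35 at 0 min. No array at 600 min came near the 0 min range. The mean was 7.01 at 360 min, 6.67 at 480 min and 6.27 at 600 min, so each later time was below the one before. The difference was -0.77 ± 0.16 at 480 min (adjusted p 0.00128) and -1.17 ± 0.16 at 600 min (limma, adjusted p 1.40e-05, 95% interval -1.51 to -0.83). On the linear scale this was 0.444-fold, and the signal fell by 55.6%.

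The early Myl9 values were scattered. At 60 min they ran from 7.08 to 7.66 and at 120 min from 7.40 to 8.16, where the top value belonged to replicate 3, 1 of the pair of arrays that stood apart. At 360 min Myl9 read 6.89, 7.08 and 7.07, all below 0 min, and the difference of -0.43 ± 0.16 missed the threshold (limma, adjusted p 0.0789). Without the pair of arrays the adjusted p was 0.0316, and in a fit to the 6 arrays of these times alone it was 0.00528. Leaving out 1 array of these times gave an adjusted p of 0.105 to 0.246.

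Tagln encodes transgelin (SM22), an actin-binding protein that is an early mark of smooth muscle differentiation. It read 8.83, 8.96 and 8.83 at 480 min and 8.99, 8.91 and 8.88 at 600 min, against 9.22, 9.34 and 9.37 at 0 min. No array of these late times reached the 0 min range. The difference was -0.43 ± 0.06 at 480 min and -0.38 ± 0.06 at 600 min (limma, adjusted p 1.65e-05 and 5.05e-05), so its lowest mean came at 480 min. The change was already called at 360 min (-0.20 ± 0.06, adjusted p 0.0224). That call was lost without replicate 2 or 3 of 0 min (adjusted p 0.0783 and 0.0997) and without replicate 1 or 2 of 360 min (0.0642 and 0.0580).

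The pair of calponin genes differed from each other in what passed the test. Cnn2, the calponin found in many non-muscle cells, read 9.88, 9.76 and 9.76 at 600 min, against 10.26, 10.24 and 10.09 at 0 min. Its highest early mean was 10.37 at 30 min, with arrays at 10.28, 10.40 and 10.43, above all of 0 min. It fell, with a difference of -0.32 ± 0.07 at 480 min and of -0.40 ± 0.07 at 600 min (limma, adjusted p 0.00135 and 1.36e-04). Cnn1, the calponin most restricted to differentiated smooth muscle, read 4.02, 4.00 and 4.19 at 600 min, against 4.06, 4.10 and 4.10 at 0 min. It averaged 4.06 over the 24 arrays, under the array medians, and a change at such a level is hard to see on an array. Its difference at 600 min was -0.01 (95% interval -0.11 to 0.09, adjusted p 0.908), and whether Cnn1 and Cnn2 changed by different amounts was not tested.

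Tpm1 gave the smallest p of the 10. This tropomyosin gene makes both muscle and stress fibre forms. It read 9.61, 9.56 and 9.45 at 600 min, against 10.07, 10.08 and 10.06 at 0 min. The arrays at 360 min (9.81, 9.82 and 9.83) and at 480 min (9.60, 9.73 and 9.75) also lay below every array of 0 min. The difference was -0.25 ± 0.04 at 360 min, -0.38 ± 0.04 at 480 min and -0.53 ± 0.04 at 600 min (limma, adjusted p 4.59e-04, 2.86e-06 and 3.32e-08), with 0.694-fold of the 0 min signal left at 600 min.

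Tpm2, the beta tropomyosin, read 7.84, 7.62 and 7.76 at 600 min, against 8.01, 8.15 and 8.02 at 0 min. The groups did not overlap, but its spread was wider than that of Tpm1, with a SD of 0.11 against 0.08 at 600 min. The difference of -0.32 ± 0.09 was called at 600 min (limma, adjusted p 0.0101) and that of -0.21 ± 0.09 at 480 min was not (adjusted p 0.107, and 0.0456 in a fit to the 6 arrays of these times alone). The adjusted p at 600 min was 0.0579 when replicate 2 of 0 min was left out and 0.0657 when replicate 2 of 600 min was.

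Cald1 and Vcl did not pass the test at any time. Cald1, which encodes the filament-binding protein caldesmon, read 9.54, 9.46 and 9.41 at 600 min, against 9.49, 9.48 and 9.39 at 0 min. The groups overlapped, and the difference of 0.02 had a 95% interval of -0.09 to 0.12 (adjusted p 0.876). At 30, 60, 120 and 240 min all Cald1 arrays lay above those of 0 min, at 30 min only just. Its largest difference, 0.13 ± 0.05 at 240 min, was not called (limma, adjusted p 0.185). With both outlying arrays left out it was 0.10 (adjusted p 0.373). Vcl, whose product vinculin anchors filaments at focal adhesions, read 10.27, 10.04 and 10.17 at 600 min, against 10.29, 10.30 and 10.30 at 0 min. All 3 late arrays were lower, replicate 1 only slightly, and the difference of -0.13 ± 0.06 missed the threshold (limma, adjusted p 0.0884). Without replicate 1 of 600 min it was called (adjusted p 0.0168), and leaving out 1 other array of these times took the adjusted p as high as 0.442.

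**Figure D2:**
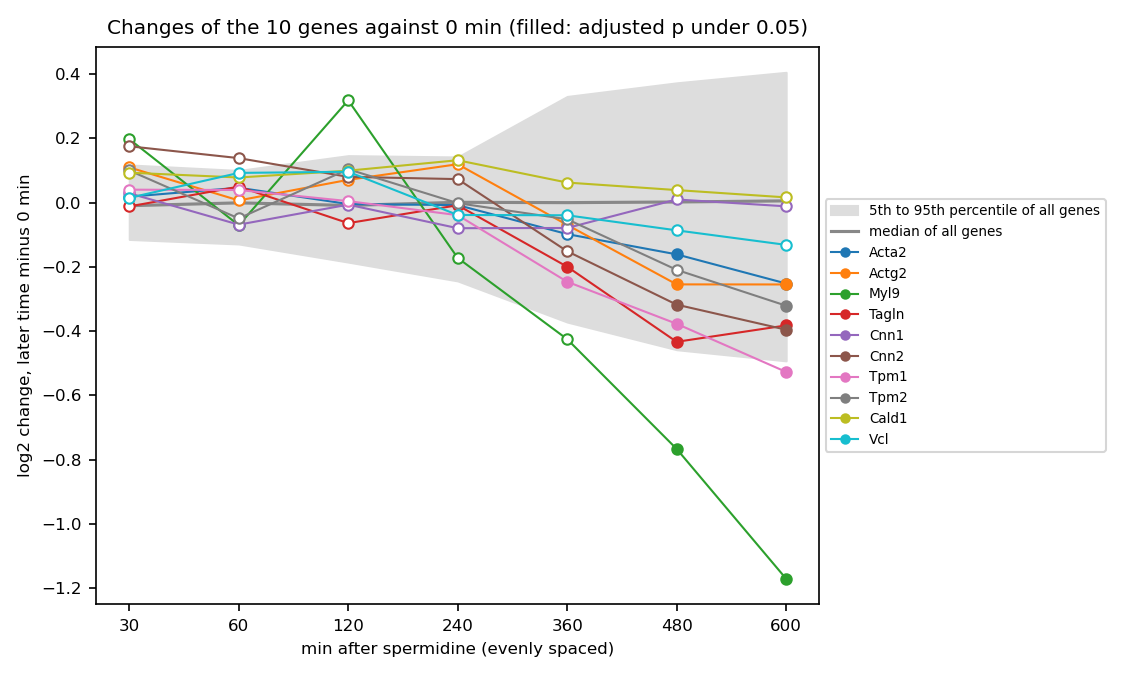
Log2 difference from 0 min (vertical axis) of each of the 10 genes against time in min (evenly spaced), from the fit over 24 arrays. Filled markers are called differences and open markers uncalled ones. The grey band runs from a low to a high percentile of all genes and is not a confidence interval. The grey line is the median of all genes. Called differences appear from 360 min on and all lie below 0, with Myl9 lowest at -1.17.

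**Figure D3:**
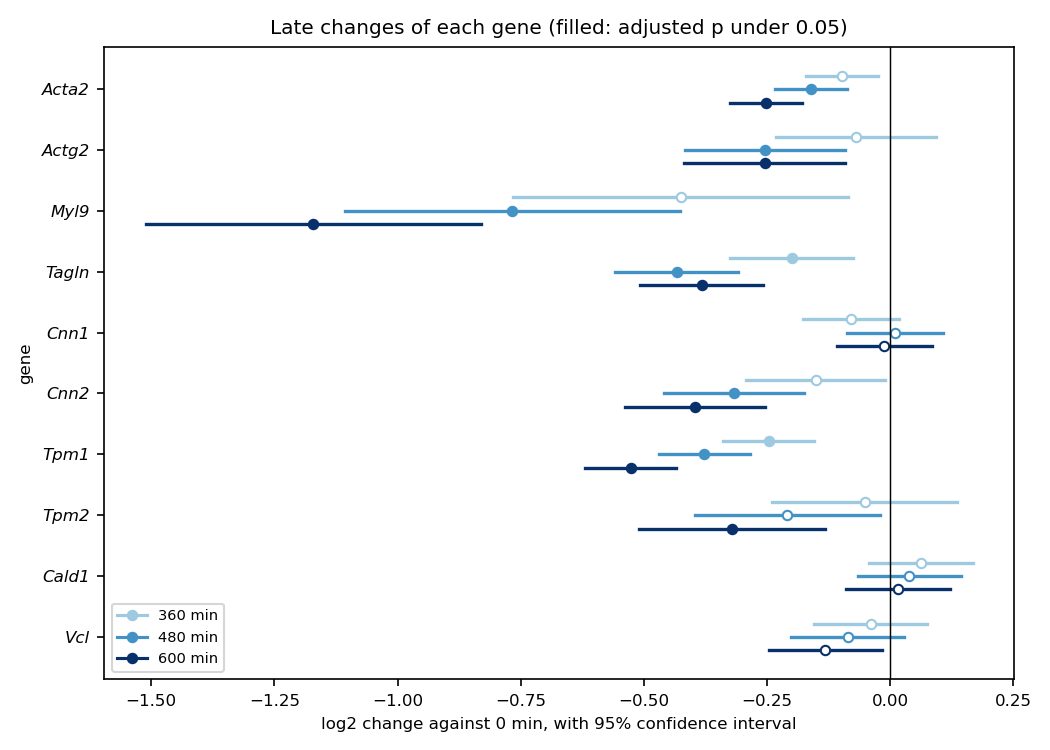
Log2 differences from 0 min (horizontal axis) at 360, 480 and 600 min for the 10 genes, with 95% intervals. The intervals of Cnn1 and Cald1 include 0 at all 3 times.

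Across the whole series of times, the F-test over the 7 differences from 0 min called 8 of the 10 genes, against 30.9% of all genes. Cnn1 and Cald1 were the exceptions (limma, adjusted p 0.312 and 0.370), and Vcl was called at an adjusted p of 0.0209, or 0.0472 with the replicate block. The highest mean of Vcl was at 120 min and its lowest at 600 min. Of the 10, 7 had their lowest mean at 600 min (Acta2, Actg2, Myl9, Cnn2, Tpm1, Tpm2 and Vcl).

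Between neighbouring times few steps passed the test. Of 60 pairs of a gene and an interval after spermidine, 1 was called: Tpm1 had 9.82 at 360 min, against 10.03 at 240 min, a difference of -0.21 ± 0.04 (limma, adjusted p 0.00889). Larger steps of Myl9, from -0.49 between 120 and 240 min to 0.39 between 60 and 120 min, were not called (adjusted p 0.366 and 0.324). The first of them was -0.22 with both outlying arrays left out, and the second 0.19. Without replicate 3 of 240 min the Tpm1 step from 240 to 360 min was -0.17 (limma, adjusted p 0.0827) and no pair was called. Without replicate 2 of 240 min, Actg2, Tagln and Cnn2 were also called from 240 to 360 min (adjusted p 0.0248, 0.00890 and 0.0126). Among all genes 0.0451% were called from 30 to 60 min, 0.411% from 60 to 120 min, 0% from 120 to 240 min, 6.05% from 240 to 360 min, 0.612% from 360 to 480 min and 0.181% from 480 to 600 min. Replicate 3 of 240 min, 1 of the pair that stood apart, was the highest 240 min array for Acta2, Tagln, Cnn2 and Tpm1.

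The 7 genes called at 600 min tracked each other over the 24 arrays, with Pearson correlations between them from 0.737 (Cnn2 and Tpm2) to 0.944 (Acta2 and Tpm1). These arrays share the course in time, and the 7 were picked for being lower at 600 min, which by itself favours correlations above 0. Once each time's mean was subtracted, the correlations ran from -0.235 (Myl9 and Tpm1) to 0.653 (Actg2 and Tagln). Cnn1 correlated with the other 9 at -0.36 to 0.16.

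By rule, the 5 genes outside the list with the highest correlation over the 24 arrays were found for Acta2 and for Tpm1. For Acta2 they were Flnc (0.962), Clba1 (0.960), Etfb (0.959), Fhl1 (0.955) and Hint2 (0.955). Flnc, the muscle filamin that crosslinks actin, averaged 8.83 at 600 min, against 9.81 at 0 min. Fhl1, a LIM protein of muscle, averaged 8.27 at 600 min, against 9.61 at 0 min. For Tpm1 they were Osbpl5 (0.977), Cyb5r1 (0.975), Prss23 (0.974), Immp1l (0.970) and Asns (0.969). Their differences at 600 min ran from -1.34 to -0.71, a direction fixed by choosing them for likeness to genes that were lower then.

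Genes that work beside the 10 were followed as lists, drawn up from general knowledge but with earlier results of these data known. Of the myosin II chains and their regulators, 7 of 13 measured were lower at 600 min and 0 were higher, against 15.7% and 11.2% of all genes, with a median of -0.20. The kinase Rock1, which activates myosin by blocking its phosphatase, fell by 0.47, and the non-muscle heavy chain Myh9 fell by 0.40 (limma, adjusted p 4.87e-04 and 1.08e-04). The phosphatase subunits Ppp1r12a (-0.34) and Ppp1cb (-0.31) and the light chains Myl6 (-0.33) and Myl12a (-0.20) were called as well. Also called was the heavy chain Myh10 (-0.21, adjusted p 0.0458, and 0.0689 with the replicate block), named here after its value was seen.

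Of the remaining calponins, transgelins and tropomyosins, 2 of 5 were lower, Tagln2 (-0.37, limma, adjusted p 3.64e-05) and Tpm3 (-0.15, adjusted p 0.00348, and 0.305 when its probe sets were averaged). Tpm4, Cnn3 and Tagln3 differed by -0.02, 0.09 and 0.04 and were not called. Of the other actins, 1 of 3 was lower: Acta1, the skeletal alpha actin, at -0.33 (adjusted p 0.0327, and 0.0503 with the replicate block). Its call was lost when any of 5 arrays was left out, replicates 1 and 3 of 0 min and all 3 of 600 min (adjusted p 0.0509 to 0.137). The Acta1 call was also lost under quantile normalisation (limma, adjusted p 0.0689), and its mean level was under 6. Cytoplasmic Actb differed by -0.07 (adjusted p 0.161, and 0.0378 under quantile normalisation) and cardiac Actc1 by 0.10 (adjusted p 0.603), and neither was called. Leaving out 1 array gave an adjusted p of 0.121 to 0.519 for Actb. Paralogous actins are nearly identical in coding sequence, and how far their probe sets share signal was not tested.

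The focal adhesion and actin crosslinking genes went both ways, with 7 of 20 lower and 4 higher at 600 min, as all genes did (15.7% lower and 11.2% higher). The LIM proteins Zyx (-0.57) and Pdlim7 (-0.43) and the integrin subunit Itgb1 (-0.23) were among the lower (limma, adjusted p 1.40e-04, 1.37e-05 and 7.28e-05). The LIM protein Csrp1 (0.64), the tensin Tns1 (0.40) and the actin polymerisation factor Vasp (0.25) were among the higher (adjusted p 5.17e-05, 0.00146 and 2.00e-05). The median of this list was -0.08.

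Among SRF and its cofactors, 2 of 8 were lower and 1 was higher at 600 min, against 15.7% and 11.2% of all genes. Srf itself read 6.30, 6.03 and 6.19 at 600 min, against 6.66, 6.88 and 6.68 at 0 min. The difference was -0.88 at 360 min, -0.77 at 480 min and -0.57 ± 0.17 at 600 min (limma, adjusted p 9.04e-04, 0.00201 and 0.0173). Its difference from 0 min was thus larger at 360 min than at 600 min, whereas that of Myl9, Tpm1, Acta2 and Cnn2 was larger at 600 min; whether these courses differ was not tested. The Srf call at 600 min was lost when replicate 2 of 0 min was left out (adjusted p 0.0769) and when replicate 2 of 600 min was (0.0778). At 120 min replicate 3 read 5.95, against 6.49 and 6.82 in the other arrays of that time, and at 240 min replicate 3 read 6.85, against 6.29 and 6.19.

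The SRF cofactor Fhl2 was lower (-0.53, limma, adjusted p 0.00251) and the ETS factor Elk3 higher (0.57, adjusted p 9.61e-05) at 600 min. The coactivators Mrtfa and Mrtfb differed by 0.24 and -0.30 and missed the threshold (adjusted p 0.0573 and 0.0569). Leaving out replicate 1 of 0 min brought both past it (0.0420 for Mrtfa and 0.0397 for Mrtfb), as did leaving out replicate 2 of 600 min for Mrtfa (0.00603) and replicate 1 of 600 min for Mrtfb (0.0108). Leaving out 1 other array took the adjusted p as high as 0.256 for Mrtfa and 0.320 for Mrtfb. Elk1 was not called.

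**Figure D4:**
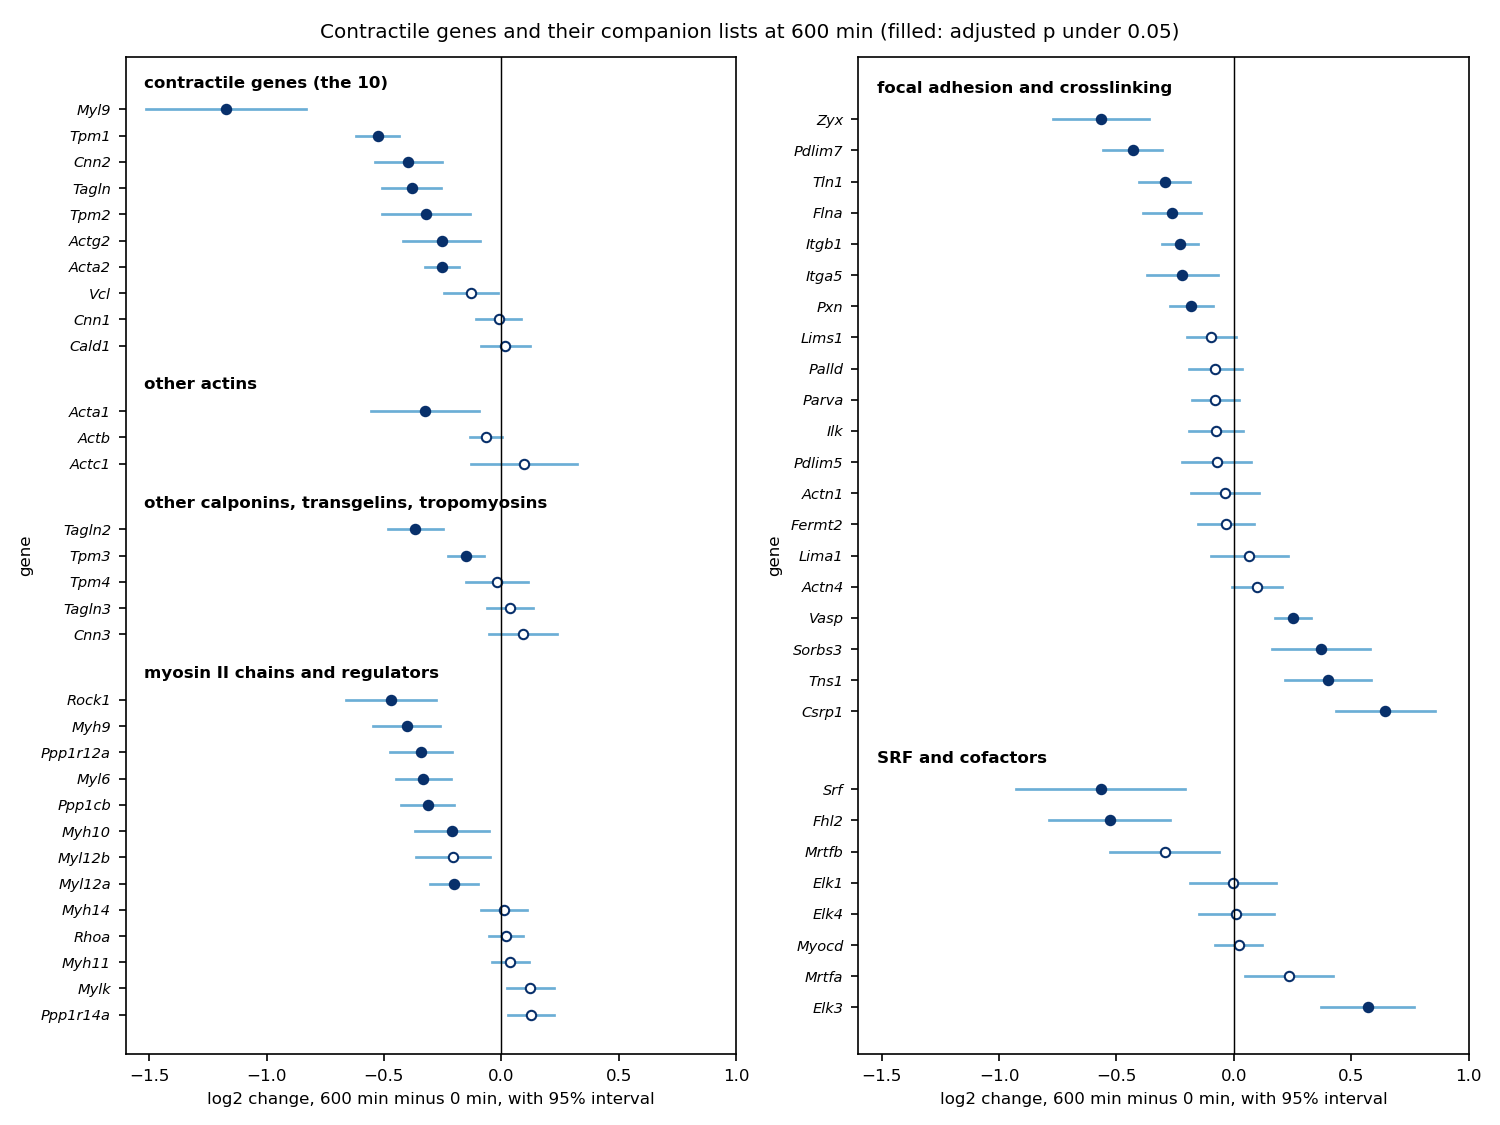
Log2 differences at 600 min from 0 min (horizontal axis) with 95% intervals for the 10 contractile genes and all measured genes of the 5 companion lists. Of the 13 myosin II genes, 7 were called lower and 0 higher, while called focal adhesion genes and SRF cofactors lie on both sides of 0.

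The marker counts at 600 min stand beside 15.7% of all genes called lower and 11.2% called higher. At 600 min 0 of 9 fibroblast markers were lower and 3 were higher: the receptors Pdgfra (1.37) and Pdgfrb (0.42) and vimentin (Vim, 0.10), with limma adjusted p of 3.53e-06, 0.0198 and 0.0259, named after their values were seen. The summed linear signal of the 9 was 20206 to 22099 at 600 min, against 20059 to 20437 at 0 min, while that of the 10 contractile genes was 9191 to 9794 at 600 min, against 11260 to 11539 at 0 min. Bright probe sets such as Acta2 (log2 mean 12.54 at 0 min) weigh most in such a sum, so it does not speak for each gene. Of 7 smooth muscle markers 1 was lower (Des, -0.27, limma, adjusted p 0.0167), of 7 epithelial markers 1 was lower (Cdh1, -0.29, adjusted p 0.00219), and of the macrophage, adipocyte and endothelial markers 0 of 15 were called. Apart from Lyz2 at 7.40, none of the epithelial, macrophage, adipocyte and endothelial markers averaged 6 or more. The part of any of these in the contractile gene results was not tested.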

How the data were processed

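Per the labels, RNA from 3 biological replicates at each of 8 times was labelled from 200 ng and hybridised to 1 array per replicate. Per the submitters' processing notes the authors used Partek with RMA (robust multi-array averaging), and the deposited values are on a log2 scale, as judged from their range and this method; software versions are not given in the sources used here. No further normalisation was applied. Precision is set by 3 arrays per time, with a median SE of a difference of 0.0567.

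Of 35399 probe sets, 21789 carried 1 symbol, 1621 several and 11989 none. For 999 genes with several probe sets the brightest on average was taken, which left 19938 genes. Symbols were set against RefSeq by gene ID: 0 were updated and 82 had no match and were kept.

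One mean per time was fitted over 24 arrays with limma 3.58.1 (R 4.3.3), two-sided, with Benjamini-Hochberg adjustment within each comparison and no minimum change, on 16 residual and 3.48 prior degrees of freedom. With replicate number as a block, 14 residual degrees of freedom remain. Same-numbered arrays of different times had correlations of their deviations from the time means between -0.533 and 0.182 (median -0.153), but with the replicate means equalised before deposit this cannot show whether the numbers pair the arrays. Named companion genes are up to 6 per list by the F-test, and markers and lists come from general knowledge. The 10 genes, the lists and the tests were chosen with earlier results of these data known. The labels call the replicates biological and say no more of their origin. Tables and plots used Python 3.11.15, pandas 2.3.3, numpy 2.4.6 and matplotlib 3.10.9.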

Additional observations from a re-analysis of the deposited data

How the results depend on the processing

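The alternatives were the replicate block, leaving out each array, dropping both arrays that stood apart (also with the block), quantile normalisation, median centring, a filter at a mean of 6, the mean of probe sets, eBayes with trend and robust, a fit to the 6 arrays compared, and an adjusted p under 0.01. With the replicate block 2, 6 and 7 of the 10 genes were called at 360, 480 and 600 min and 8 by the F-test, as without it. Leaving out 1 array gave 1 to 3 at 360 min, 5 to 6 at 480 min, 5 to 8 at 600 min and 8 by the F-test, and at 360 min an adjusted p under 0.01 left 1. Of 34 called single-gene results, 27 kept their call and direction under every alternative, 7 lost the call under at least 1, and 0 reversed; 9 of 14 counts stayed within 1.5 times. The 1 called step between neighbouring times became 0 to 5 without 1 array, 0 without the pair of arrays with or without the block, 3 under quantile normalisation, 3 with the filter and 2 with trend and robust. The call among other actins became 0 with the replicate block, with the pair left out and the block, with the filter and at 0.01, and 0 to 1 without 1 array. The filter took Acta1 out of the test as dim, and under quantile normalisation the call was that of Actb and not of Acta1. The 2 calls among other calponins, transgelins and tropomyosins became 1 with the mean of probe sets, and the 3 among SRF and its cofactors became 2 to 5 without 1 array. Uncalled differences near 0 changed sign. Without 1 array Cald1 at 600 min ran from -0.017 to 0.045, Cnn1 at 480 min from -0.0026 to 0.016 and at 600 min from -0.072 to 0.023, Tpm2 at 360 min from -0.12 to 0.011, Vcl at 360 min from -0.064 to 0.0036, Elk1 at 600 min from -0.073 to 0.051 and Tpm4 at 600 min from -0.043 to 0.014. Quantile normalisation gave -0.00090 for Cnn1 at 480 min, 0.054 for Elk1 and 0.029 for Tpm4. The cause of these moves was not tested. Dim probe sets such as Cnn1 limit what can be seen.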
